A study of Rattus norvegicus with 17 samples.

Results

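Endothelial genes of the liver were described in 24-day-old male Wistar rats whose mothers had been fed different amounts of choline. The set was 9 genes chosen by name: Dnase1l3, Tek, Stab1, Stab2, Lyve1, Kdr, Pecam1, Cdh5 and Gja5. A probe set annotated to that gene alone was used for 7 of them, each with 1 such probe set, out of 14557 genes measured this way. Kdr and Pecam1 had no such probe set in the annotation used and are not analysed here. All 7 passed the filter on dim genes and were among the 12912 genes tested.

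Every mother was fed a choline-deficient diet for 16 weeks before mating to give her a fatty liver, so no group had a mother without that history. The diet was then kept deficient or made adequate in choline for pregnancy, and set again for lactation. DD livers (n = 4) came from pups of mothers deficient in both periods. ND livers (n = 4) had an adequate pregnancy and a deficient lactation, DN livers (n = 5) a deficient pregnancy and an adequate lactation, and NN livers (n = 4) were adequate in both. One male per litter was taken, so each of the 17 arrays is 1 liver from its own litter. Affymetrix arrays gave a log2 signal per probe set, which is relative, carries no read depth and cannot be compared between genes. The tissue labels name liver, while a free-text field names the prostate cancer line LnCap. The values were treated as liver, as the tissue labels have it. Alb, made by hepatocytes, and the sinusoidal markers Clec4g, Oit3 and Gpr182 each gave a signal above 1.73, the 25th percentile of the whole table used to filter dim genes, on 17 of 17 arrays, which is a check of presence and not of amount.

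Liver sinusoids are lined by fenestrated endothelial cells that lack a continuous basement membrane and clear waste from the blood. Stabilins and Lyve1 are scavenger and hyaluronan receptors of these cells, whereas Cdh5 and Tek are found throughout the vasculature and Gja5 is typical of arteries. Capillary-like change of the sinusoids, with loss of sinusoidal markers, is a known feature of fatty and fibrotic liver.

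No member passed the test at a Benjamini-Hochberg adjusted p under 0.05 in any of the 9 comparisons made. The smallest adjusted p-values of the members lay in the interaction of the 2 diet periods, which is the DD minus DN difference less the ND minus NN difference. Dnase1l3, Tek, Stab2 and Cdh5 stood higher in the livers of pups whose mothers' diet was switched at birth (ND and DN) than in those whose mothers' diet was not (DD and NN), and Gja5 stood the other way round. In limma the interaction of Dnase1l3 was -1.22 ± 0.282 (SE, adjusted p = 0.114) and that of Gja5 was 0.90 ± 0.204 (adjusted p = 0.114), and 5 of 7 members had an unadjusted p under 0.05, where 20% of all genes tested had one and 0% passed the adjusted threshold. Of these 4 were negative, against 11.9% of all genes, and 1 was positive, against 8.12%. The members were chosen with earlier results of these data known, so such counts beside all genes are descriptive and not independent support. In whole liver, fewer endothelial cells and less RNA per endothelial cell cannot be told apart.

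**Figure D1:**
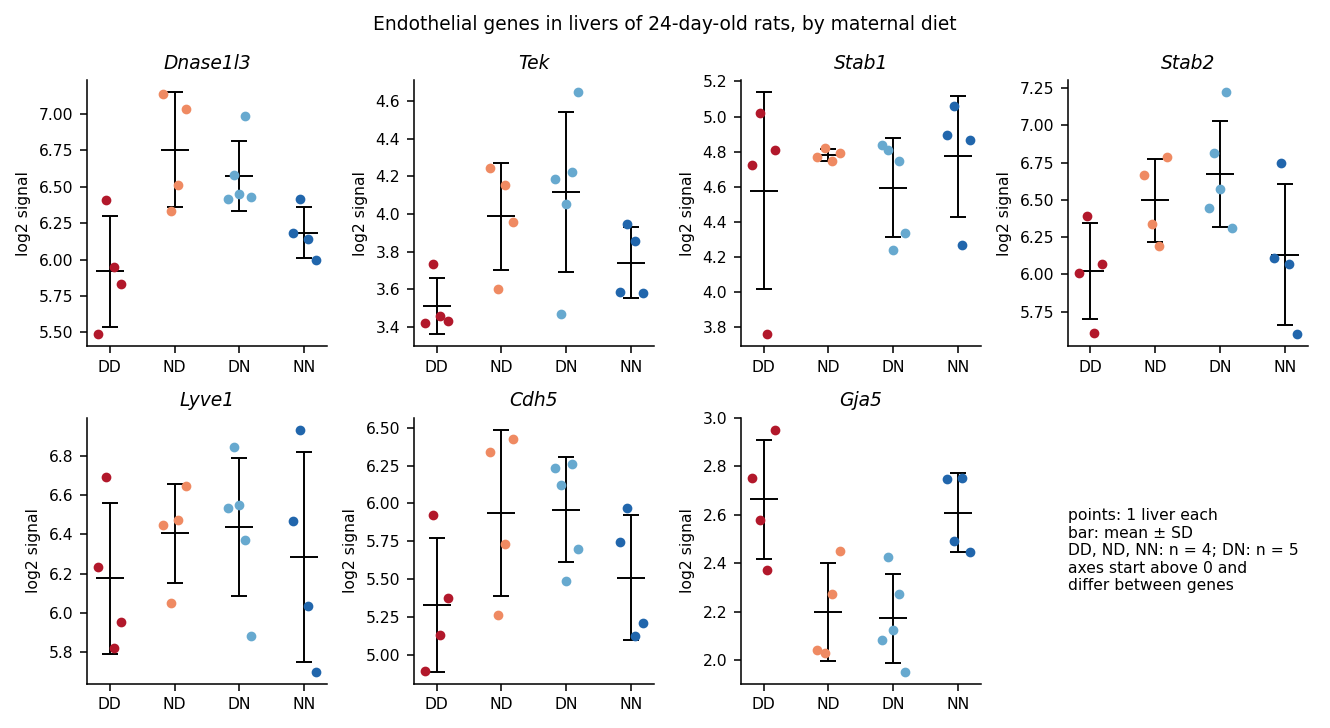
Log2 signal of the 7 measured members (vertical axis, scaled to each gene) in DD, ND, DN and NN livers (horizontal axis), with 1 point per liver and bars for the mean ± SD. Dnase1l3, Tek, Stab2 and Cdh5 have their highest means in ND or DN, and Gja5 has its highest means in DD and NN.

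Dnase1l3 encodes a secreted nuclease that digests DNA in chromatin and in blood-borne vesicles. In DD livers its signals were 5.49, 6.41, 5.95 and 5.83, and in ND livers they were 7.14, 6.33, 6.51 and 7.04. DN livers gave 6.42, 6.58, 6.45, 6.99 and 6.43, and NN livers gave 6.18, 6.42, 6.14 and 5.999. DD livers all lay below all DN livers, by a narrow gap between DD 2 and DN 1, while DD and ND livers overlapped through DD 2 and ND 2 alone. A complete separation with DD lower was seen in 3.2% of all genes tested. The means were 5.92 ± 0.38 in DD, 6.75 ± 0.39 in ND, 6.57 ± 0.24 in DN and 6.18 ± 0.17 in NN (SD). DD was lower than ND by 1.78-fold (difference -0.83 ± 0.204 on the log2 scale, unadjusted p = 0.000739, adjusted p = 0.55 in limma) and lower than DN by 1.57-fold (-0.65 ± 0.194, adjusted p = 0.133). ND exceeded NN by 0.57 ± 0.204 (unadjusted p = 0.0125, adjusted p = 0.889). From high to low the order was ND, DN, NN and DD, and no 2 neighbours in it differed at an unadjusted p under 0.05.

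Stab2 encodes stabilin-2, the hyaluronan clearance receptor of sinusoidal endothelium. Its signals were 6.01, 6.39, 5.61 and 6.07 in DD, 6.67, 6.34, 6.19 and 6.79 in ND, 6.45, 6.81, 6.58, 7.22 and 6.31 in DN, and 6.11, 6.75, 6.07 and 5.60 in NN. Only DD 2 reached into the range of the ND and DN livers among the DD samples, and only NN 2 did so among the NN samples. The mean was 6.02 ± 0.32 in DD and 6.67 ± 0.36 in DN, a difference of -0.65 ± 0.225 (adjusted p = 0.159 in limma), and DN exceeded the NN mean of 6.13 ± 0.47 by 0.54 ± 0.225 (adjusted p = 0.334). The interaction was -1.02 ± 0.326 (adjusted p = 0.133).

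Its relative Stab1, a scavenger receptor that macrophages also express, had an interaction of -0.03 ± 0.317, which turned to 0.14 after repeated quantile normalization. Stab1 signals were 4.72, 5.02, 3.76 and 4.81 in DD, 4.77, 4.82, 4.75 and 4.79 in ND, 4.84, 4.81, 4.24, 4.75 and 4.34 in DN, and 4.89, 5.06, 4.27 and 4.86 in NN. The groups overlapped throughout. Variation lay within groups, with 1 low array in DD and an SD of 0.56 in DD against 0.03 in ND. Lyve1, a hyaluronan receptor of sinusoidal and lymphatic endothelium, ran from 5.82 to 6.69 in DD, from 6.05 to 6.65 in ND, from 5.89 to 6.84 in DN and from 5.70 to 6.93 in NN. The NN livers alone spanned the whole range of Lyve1. Neither Stab1 nor Lyve1 had an unadjusted p under 0.05 in any of the 9 comparisons in the fit of 4 group means.

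Tek, the angiopoietin receptor Tie2, gave 3.42, 3.73, 3.46 and 3.43 in DD livers and 4.24, 3.60, 4.15 and 3.96 in ND livers. In DN livers it gave 4.19, 3.47, 4.05, 4.22 and 4.65, and in NN livers 3.58, 3.95, 3.85 and 3.58. The DD livers were close together and low, and in both ND and DN a single array, ND 2 and DN 2, fell among them. Tek was lower in DD than in DN by 0.60 on the log2 scale (difference -0.60 ± 0.188, means 3.51 ± 0.15 and 4.11 ± 0.43, adjusted p = 0.143 in limma) and lower in DD than in ND, which averaged 3.99 ± 0.28 (difference -0.48 ± 0.199, unadjusted p = 0.0273, adjusted p = 0.55). Its interaction was -0.85 ± 0.274 (adjusted p = 0.134).

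Cdh5 encodes VE-cadherin, the adhesion molecule of endothelial junctions. Its signals were 4.89, 5.92, 5.13 and 5.38 in DD, 6.34, 5.26, 5.73 and 6.42 in ND, 6.23, 6.12, 5.48, 6.26 and 5.70 in DN, and 5.75, 5.97, 5.12 and 5.21 in NN. DD and ND livers each spanned over 1 log2 unit, and all groups overlapped. DD averaged 5.33 ± 0.44, ND 5.94 ± 0.55, DN 5.96 ± 0.35 and NN 5.51 ± 0.41. The difference was -0.61 ± 0.279 between DD and ND and -0.63 ± 0.264 between DD and DN (adjusted p = 0.559 and 0.224 in limma), and the interaction was -1.06 ± 0.384 (adjusted p = 0.159).

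Gja5 encodes connexin 40, a gap junction protein of arterial endothelium and of the cardiac atria. It is dim on these arrays, with a signal above the median of all values on 4 of 17, so its fold changes are uncertain in size. Its signals were 2.75, 2.58, 2.37 and 2.95 in DD, 2.04, 2.03, 2.27 and 2.45 in ND, 2.08, 2.43, 2.12, 2.27 and 1.95 in DN, and 2.75, 2.49, 2.75 and 2.45 in NN. All 5 DN livers lay below all 4 NN livers, a separation seen in 1.92% of genes tested, while 1 DD liver, DD 3, lay within the upper range of DN and ND. Gja5 was higher in DD than in ND by 0.46 ± 0.148 (adjusted p = 0.55 in limma) and higher in DD than in DN by 0.49 ± 0.140 (adjusted p = 0.131). It was lower in ND than in NN (-0.41 ± 0.148, adjusted p = 0.889) and lower in DN than in NN (-0.44 ± 0.140, adjusted p = 0.281). In the order DD, NN, ND, DN, NN and ND were the neighbours that differed at an unadjusted p under 0.05.

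With ND and DN livers set together, 7 of 9 gave a Dnase1l3 signal above all 8 DD and NN livers, and 7 of 9 gave a Tek signal above all 8. For Gja5 7 of 9 lay below all 8. Among all genes tested, 0.743% had at least 7 of the 9 above all 8 and 0.534% had at least 7 below. The counts above all 8 were 5 for Cdh5 (as many or more in 6.17% of genes), 3 for Stab2 (20.0%), and 0 for Stab1 and Lyve1. This grouping follows the interaction already described, so the counts are another view of the same differences. Dnase1l3 and Tek were also chosen with their earlier DD and ND results known.

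Promoter sequence is shown for Dnase1l3 and Stab2, which varied together over the arrays, and for Gja5, whose group means stood opposite to theirs. The windows run from 250 bases before to 50 bases after the RefSeq gene start on the gene's strand in GRCr8, for 6 of the 9 members, and these 3 lie at chr15:19352302-19352601 (plus strand), chr7:23320513-23320812 (minus strand) and chr2:187290977-187291276 (plus strand). Capitals mark matches on either strand to any of 5 motifs. These were AGGAAG, the core bound by ETS factors such as Erg, which act in endothelium, then ACAAAG for SOX factors, the letters AGATAA for factors of the GATA family, the box GGGCGG bound by Sp and Klf factors, and the TATA box letters, TATAAA. No matches overlap in these windows.
Dnase1l3: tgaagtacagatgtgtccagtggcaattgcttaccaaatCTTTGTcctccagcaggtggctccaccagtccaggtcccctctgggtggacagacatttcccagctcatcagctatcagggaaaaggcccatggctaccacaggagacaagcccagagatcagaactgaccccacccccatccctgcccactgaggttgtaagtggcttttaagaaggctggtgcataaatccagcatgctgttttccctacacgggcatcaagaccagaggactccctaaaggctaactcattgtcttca
Stab2: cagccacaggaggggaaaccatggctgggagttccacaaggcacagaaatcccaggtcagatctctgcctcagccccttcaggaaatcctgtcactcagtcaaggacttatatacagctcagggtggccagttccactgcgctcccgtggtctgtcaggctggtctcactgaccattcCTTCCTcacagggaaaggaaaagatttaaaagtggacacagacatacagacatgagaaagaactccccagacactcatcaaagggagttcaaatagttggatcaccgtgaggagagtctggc
Gja5: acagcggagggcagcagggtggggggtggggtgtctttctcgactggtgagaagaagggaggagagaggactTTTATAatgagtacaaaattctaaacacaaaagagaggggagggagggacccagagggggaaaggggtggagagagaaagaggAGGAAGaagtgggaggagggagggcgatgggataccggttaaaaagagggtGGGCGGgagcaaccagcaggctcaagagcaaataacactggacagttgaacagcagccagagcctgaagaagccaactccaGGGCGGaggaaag
The ETS letters occurred in the windows of Stab2, Gja5 and Lyve1, 3 of 6 members, and in 34.5% of the 33469 rat promoters of that length. The GC box occurred in Gja5 and Kdr (33.1% of promoters), the SOX letters in Dnase1l3 (18.8%), TATAAA in Gja5 (14.2%) and the GATA letters in 0 of 6 (11.6%). Dnase1l3 and Stab2 had no motif of the 5 in common in these windows.

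By pair of groups, the count of members at an unadjusted p under 0.05 was 4 of 7 for DD against ND (against 8.77% of all genes), with 3 lower, against 5.84%, and 1 higher, against 2.93%. It was 5 of 7 for DD against DN (against 18.5%), with 4 lower, against 10.6%, and 1 higher, against 7.84%. For ND against NN it was 2 of 7 (against 4.63%), with Gja5 lower, against 1.88%, and Dnase1l3 higher, against 2.75%. For DN against NN it was 2 of 7 (against 13.4%), with Gja5 lower, against 6.63%, and Stab2 higher, against 6.78%. It was 0 of 7 for DD against NN (3.58% of genes) and for ND against DN (2.83%), and also for the average effect of lactation diet (3.15%) and of pregnancy diet (2.84%). The adjusted threshold was passed by 0 of 7 members in each comparison, against 0.00774% of all genes in DD against DN and 0% in the other 8. The median difference of the members was -0.48 in DD against ND and -0.60 in DD against DN, where all genes had -0.02 and 0.01. In ND against NN and DN against NN it was 0.25 and 0.37, where all genes had -0.01 and -0.03. DD against DN and DD against ND share the DD arrays, and the other 2 share the NN arrays, so these are not independent results. Dnase1l3 and Tek, both counted in DD against ND, had stood out there in earlier results known when the members were chosen. Their count beside all genes is therefore not independent support. The DD against ND count was 2 without DD 3 and DN 3, without ND 1, or without any of DD 1, DD 3 and DD 4. The DN against NN count was 5 without NN 2 and 1 without NN 1, NN 3, NN 4 or DN 4, and the ND against NN count was 1 without ND 1.

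The interaction was the comparison in which leaving out 1 array produced calls. Without NN 2, the NN liver with the widest array spread, 3 of 7 members passed in limma, namely Dnase1l3 (-1.30, adjusted p = 0.0315), Stab2 (-1.22, adjusted p = 0.0363) and Gja5 (0.94, adjusted p = 0.0321), along with 639 of all genes tested. Leaving out any of the other 16 arrays gave 0 calls among the members.

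**Figure D2:**
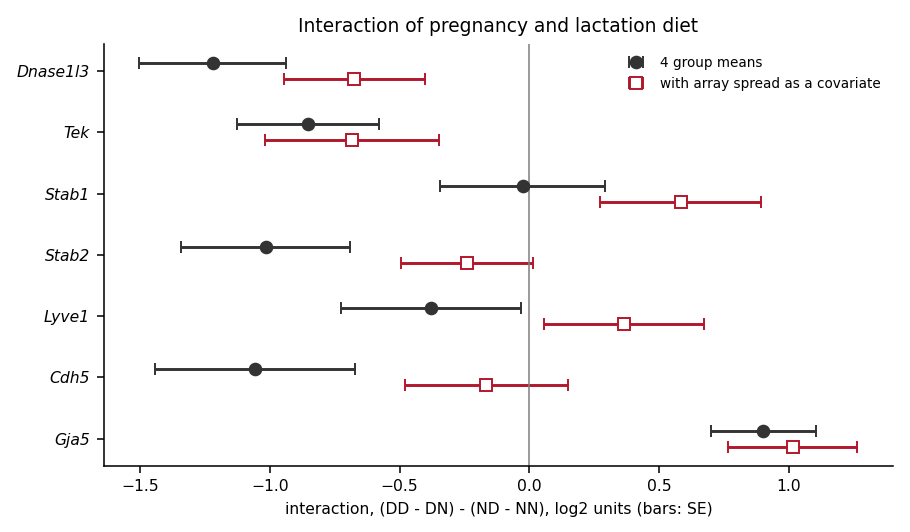
Interaction of pregnancy and lactation diet for each member (rows) on the log2 scale (horizontal axis, bars are SE), from 4 group means over 17 arrays (filled circles) and with array spread as a covariate (open squares). Gja5 is 0.90 and 1.02, whereas Cdh5 is -1.06 and -0.17 and Stab2 is -1.02 and -0.24.

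Stab2, Cdh5, Dnase1l3 and Lyve1 tracked the spread of the whole array, measured as the SD over all probe sets, more closely than most genes did. Of all genes tested, 21.8% had an r over 0.5 with spread. That spread averaged 1.67 ± 0.052 in DD, 1.74 ± 0.041 in ND, 1.75 ± 0.029 in DN and 1.70 ± 0.057 in NN, which gives the order DN, ND, NN and DD that the means of Tek, Stab2, Lyve1 and Cdh5 also had. Over 17 arrays, Pearson's r with spread was 0.88 for Stab2 (permutation p = 2e-05, adjusted p = 7e-05 over 7 relations) with a Spearman's rho of 0.90 (permutation p = 1e-05, adjusted p = 7e-05). It was 0.87 for Cdh5 (permutation p = 2e-05, adjusted p = 7e-05, rho 0.89) and 0.81 for Dnase1l3 (permutation p = 0.00011, adjusted p = 0.000257, rho 0.85). The smallest p that the permutations can give is 1e-05. An r as high as that of Stab2 was found for 0.496% of all genes tested, as that of Cdh5 for 0.829% and as that of Dnase1l3 for 2.83%. With group means removed, r was 0.83 for Stab2, 0.79 for Cdh5 and 0.69 for Dnase1l3, so the relation was present within groups as well. Without DD 3 and NN 3, whose spreads were farthest from the median, r was 0.85, 0.85 and 0.83.

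Lyve1 had r = 0.74 with spread (permutation p = 0.00094, adjusted p = 0.00164, rho 0.71), an r that 6.09% of all genes reached, and r = 0.67 without those 2 arrays. Tek had r = 0.54 (permutation p = 0.0281, adjusted p = 0.0328, rho 0.57), and 0.22 with group means removed. An r as high as that of Tek was found for 19.5% of all genes and as that of Stab1 for 18.8%. The r of Stab1, 0.55 (permutation p = 0.0212, adjusted p = 0.0297, rho 0.34 with adjusted p = 0.195), rested on the 2 outlying arrays, since it was 0.13 without them. With those arrays kept and group means removed, the r of Stab1 was 0.67. Gja5 had r = -0.36 (permutation p = 0.151, rho -0.33), and 0.22 with group means removed.

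**Figure D3:**
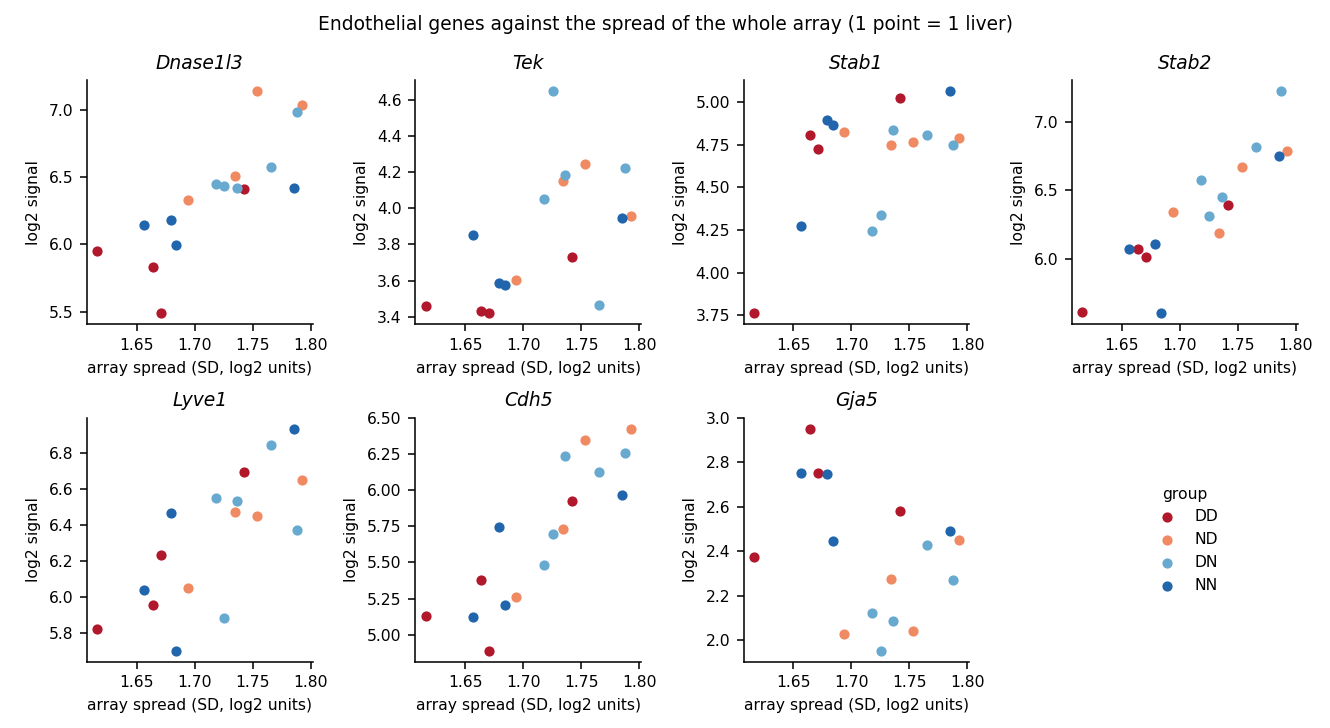
Log2 signal of each member (vertical axis) against the spread of its array, as an SD in log2 units (horizontal axis), with 1 point per liver coloured by group. Stab2, Cdh5 and Dnase1l3 run upward with spread (r of 0.88, 0.87 and 0.81), and in Gja5 most ND and DN livers lie below the DD and NN livers.

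With spread as a covariate, 2 of 7 members had an unadjusted p under 0.05 in the interaction, where 580 of all genes tested did, against 2580 without the covariate. They were Gja5, at 1.02 ± 0.249, and Dnase1l3, at -0.67 ± 0.272 (unadjusted p = 0.000783 and 0.0239, adjusted p = 0.985 and 0.985 in limma). Tek was at -0.68 ± 0.336, Stab2 at -0.24 ± 0.255 and Cdh5 at -0.17 ± 0.314, while Stab1 and Lyve1 turned to 0.58 ± 0.309 and 0.37 ± 0.308. The members' median interaction was -0.85 without the covariate and -0.17 with it. In DN against NN the covariate put Stab1 at -0.42 ± 0.186 (unadjusted p = 0.0392, adjusted p = 0.669 in limma), where it had -0.18 ± 0.218 without it. Whether array spread reflects sample handling or the tissue was not tested.

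The members varied together to different degrees. Dnase1l3 and Cdh5 had r = 0.87 over 17 arrays (permutation p = 1e-05, adjusted p = 0.00021 over 21 pairs, rho 0.84), and 0.84 with group means removed. Stab2 had r = 0.79 with Cdh5 and 0.79 with Dnase1l3 (adjusted p = 0.00147 for each by permutation, rho 0.84 and 0.85). Without the 2 arrays farthest from the median of the first gene, these r values were 0.82 for Dnase1l3 and Cdh5, 0.78 for Stab2 and Cdh5 and 0.86 for Dnase1l3 and Stab2. Of the 15 pairs without Gja5, 6 passed after adjustment, and their r ran from -0.06 to 0.87 with a median of 0.51. Of the 6 pairs with Gja5, that with Tek passed (r = -0.67, permutation p = 0.0035, adjusted p = 0.0122, rho -0.66), which was -0.55 without 2 arrays and -0.37 with group means removed. The r of these 6 pairs had a median of -0.34 over 17 arrays. With group means removed their median was 0.27, from -0.37 for Tek to 0.37, so the opposite course of Gja5 lay between group means. All pairs share the arrays and their normalisation, and Stab2, Cdh5 and Dnase1l3 also had r of 0.88, 0.87 and 0.81 with array spread. The share of other gene pairs with such r was not computed, and the part of array spread in these pairs was not tested.

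Among 12905 other genes tested, those whose signal was most like the members' mean over 17 arrays were Cnot1, a scaffold of the CCR4-NOT deadenylase complex, Dclre1a, Atp8b1, Marchf8 and Reln, with Pearson's r of 0.95, 0.93, 0.93, 0.93 and 0.92. Reln encodes a secreted glycoprotein made by stellate cells in liver. With group means removed, Cnot1, Atp8b1, Reln and Dclre1a were again among the 5 most alike, at 0.94, 0.92, 0.92 and 0.92, and Ccny was the other, at 0.91. For scale, 1% of genes had an r of 0.85 or more with the members' mean. The genes most like Dnase1l3 were Cnot10, Pam, Fgd4, Afm and Zfp91, with r between 0.89 and 0.90, where 1% of genes had an r of 0.81 or more. With group means removed, Pam alone of these stayed among the 5 most alike, which were Rc3h2, Nono, Mcm4, Pam and Abi3bp, with r between 0.88 and 0.92. The members' mean was highest on ND 4 and DN 4, whose array spreads were 1.79 and 1.79, and lowest on DD 3, at 1.62. How far array spread enters these likenesses was not tested.

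Other endothelial genes were described in the same interaction. Among 20 further genes of sinusoidal endothelium 14 were below 0, with a median of -0.16 where all genes had 0.03 and 46.9% were below 0. At an unadjusted p under 0.05 in limma 2 were lower (against 11.9% of all genes) and 1 was higher (against 8.12%), and 0 passed after adjustment. Rspo3, a Wnt signal amplifier of central vein endothelium, had an interaction of -0.95 ± 0.287, with means of 2.51 in DD, 2.80 in ND, 3.08 in DN and 2.41 in NN. Its DD and NN means lay below 2.58, the median of all values, so it is dim in these groups. The cytokine gene Il1a stood at -0.99 ± 0.359, and Thbd, encoding thrombomodulin, at 0.46 ± 0.215. Thbd averaged 2.21 in DD, 2.02 in ND, 1.95 in DN and 2.22 in NN, all below 2.58, so it is dim in every group. Clec4g, Oit3 and Gpr182, which mark sinusoidal cells, had no unadjusted p under 0.05 in the interaction.

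Among 28 genes of vascular endothelium 17 were below 0 in the interaction (median -0.09), 5 were lower (against 11.9% of all genes) and 0 were higher (against 8.12%) at an unadjusted p under 0.05, and 0 passed after adjustment. Emcn, an endothelial sialomucin, stood at -0.98 ± 0.312, with means of 4.67 in DD, 5.08 in ND, 5.25 in DN and 4.67 in NN. Calcrl, the receptor of adrenomedullin, stood at -1.29 ± 0.475, with means of 4.21 in DD, 4.78 in ND, 5.21 in DN and 4.48 in NN. Cav1, the main protein of caveolae, stood at -0.72 ± 0.289 and Adgrl4 at -0.55 ± 0.237. In DD against DN, 7 of the 28 were lower at that p, against 10.6% of all genes, and 1 was higher, against 7.84%. By sign alone, 13 of the 28 were below 0 there and 15 were above, where 48.4% of all genes were below 0. The list's median in DD against DN was 0.03, where all genes had 0.01.

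The ligands and partners of the member receptors lay on both sides, with 11 of 24 below 0 in the interaction (against 46.9% of all genes). Their median was 0.03, where all genes also had 0.03. At an unadjusted p under 0.05 in limma 3 were higher (against 8.12% of all genes) and 2 were lower (against 11.9%), and 0 passed after adjustment. Dll4, a Notch ligand of arterial endothelium, was at 0.46 ± 0.182, with means of 3.43 in DD, 3.31 in ND, 3.35 in DN and 3.70 in NN. Dll1 was at 0.43 ± 0.170. Ctnnd1, the p120 catenin that binds VE-cadherin, was at -0.72 ± 0.275, and the lymphangiogenic ligand Vegfc at -0.58 ± 0.227. Angpt1 and Angpt2, the ligands of Tek, averaged 1.77 and 2.67 in DD, 1.88 and 2.89 in ND, 1.78 and 2.80 in DN, and 1.78 and 2.94 in NN. Angpt1 is dim, with signals below the filter of 1.73 on some arrays, such as 1.64 on NN 2 and on DD 3. Angpt2 was lower in DD than in NN at an unadjusted p of 0.0448 (limma, difference -0.27 ± 0.123, adjusted p = 0.999). Of 7 other nuclease genes of the DNase and related families 0 had an unadjusted p under 0.05 in the interaction, and their median was 0.06.

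**Figure D4:**
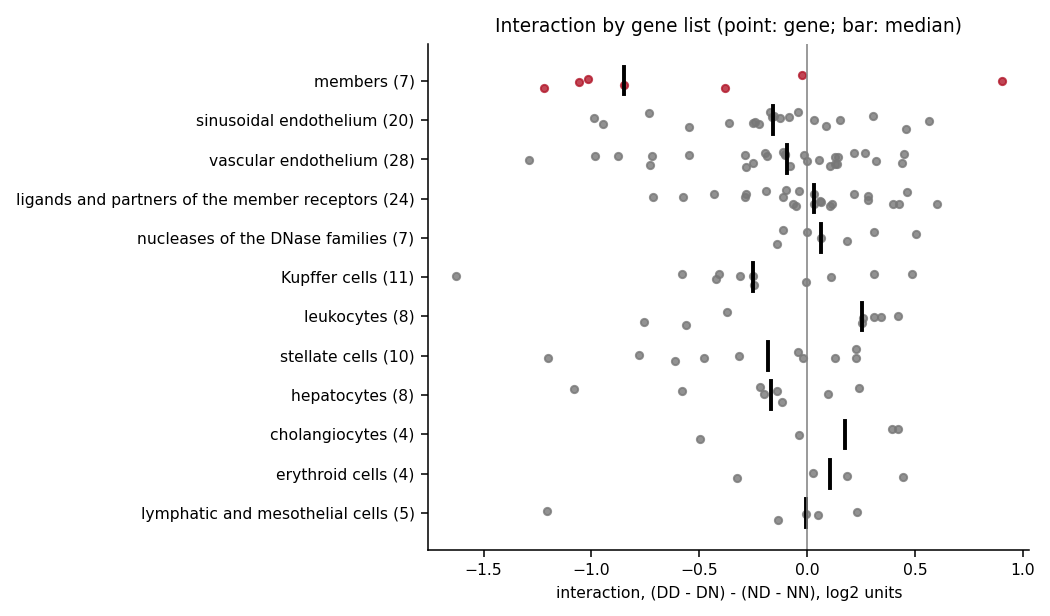
Interaction of pregnancy and lactation diet on the log2 scale (horizontal axis) for the members and 11 gene lists (rows, number of genes tested in brackets), with 1 point per gene and a bar at each median. The members' median is -0.85, and those of sinusoidal and vascular endothelium are -0.16 and -0.09.

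Markers of other cell types are given beside these, and 0 of them passed the adjusted threshold in any comparison. Of 11 Kupffer cell genes 8 were below 0 in the interaction (median -0.25), against 46.9% of all genes, and 11 were below 0 in DD against ND (median -0.23), against 52.9% of all genes. Their mean signal ran from 4.72 to 4.96 in DD, 4.79 to 5.48 in ND, 4.62 to 5.37 in DN and 4.85 to 5.43 in NN. In DD against DN 7 of the 11 were below 0 and 4 were above, where 48.4% of all genes were below 0. Vsig4, a complement receptor of Kupffer cells, had the smallest p of the list there. Its DD minus DN difference was -1.47 ± 0.348 on the log2 scale, which did not pass (adjusted p = 0.131 in limma), while that of C1qa was 0.49 ± 0.292. Of 10 stellate cell genes 7 were below 0 in the interaction (median -0.18), with a mean signal of 4.52 to 5.04 in DD, 4.65 to 4.94 in ND, 4.55 to 4.91 in DN and 4.43 to 4.61 in NN, and of 8 hepatocyte genes 6 were (median -0.17). Of 8 leukocyte genes 3 were below 0 (median 0.26), although Ptprc, the antigen CD45, stood at -0.75 ± 0.218. The part of these cells in the members' pattern was not tested.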

How the data were processed

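RNA of 17 livers was biotin-labelled for Affymetrix arrays, per the labels' protocols. The authors deposited 1 value per probe set, on the log2 scale. RMA and affy are listed in the submitters' processing notes, without versions, and base 2 was assumed because RMA uses it. The number of arrays limits the precision. Groups came from sample titles. The table holds 36685 probe sets, of which 14824 have 1 symbol in the platform's annotation, and 14670 of these matched a RefSeq gene table (GRCr8) by Entrez number. A gene was represented by its brightest probe set. A gene entered the test when 4 or more arrays exceeded 1.73, the 25th percentile of the whole table, and 1645 genes did not.

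Group means were fitted by limma 3.58.1 in R 4.3.3 (functions lmFit and eBayes) to the 17 arrays together, leaving 13 residual degrees of freedom, and p was adjusted by Benjamini-Hochberg over all 12912 genes of a comparison. The 9 comparisons were the 6 pairs of groups, 2 average diet effects and the interaction. Correlations over arrays used 100000 permutations (NumPy 2.4.6). The script was tested on simulated data with known changes. Alternatives were other filters, probe set rules, variance models, array weights, repeated quantile normalization, median centring, array spread as a covariate, the replicate number as a block, fits of fewer groups and leaving out arrays.

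The members and gene lists were chosen with earlier results of these data known, in which Dnase1l3 and Tek had already stood out between DD and ND, so their pattern is not independent support. Members are always named; a difference is given where its unadjusted p was under 0.05, and from each list up to 4 genes of smallest p were eligible, with marker levels and the Angpt1 and Angpt2 means added after their values were seen. Promoters came from RefSeq (GRCr8). Figures were drawn with matplotlib 3.10.9.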

Additional observations from a re-analysis of the deposited data

Results flagged for a closer look

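Single arrays stood apart from the rest of their group in 2 of 28 member and group combinations by Dixon's test, where chance gives about 1 in 20. Dnase1l3 in DN 4 was 6.99, while the other DN livers lay between 6.42 and 6.58. Tek in DD 2 was 3.73, while the other DD livers lay between 3.42 and 3.46.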

How the results depend on the processing

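The adjusted threshold was passed by 0 of 7 members in all 9 comparisons under each setting, except for the interaction without NN 2, so the count ran from 0 to 3 when 1 array was left out. Array spread as a covariate moved the members' median difference by more than the spread between replicates in 4 comparisons: to -0.0026 in DD against ND, -0.063 in DD against DN, 0.10 in DN against NN and -0.17 in the interaction. It also left 2 members at an unadjusted p under 0.05 in DD against ND, in DD against DN and in the interaction, where it left 363, 725 and 580 of all genes, against 1132, 2385 and 2580 without it. Without DD 3 and DN 3 together the DD against ND count was 2. Leaving out 1 array gave 2 to 5 such members in DD against ND, 1 to 5 in DN against NN and 1 to 3 in ND against NN. No member difference with an unadjusted p under 0.05 in the fit of 4 group means changed sign under any setting run, while among the others the interaction of Stab1 turned to 0.14 after repeated quantile normalization and to 0.58 with the covariate, and that of Lyve1 to 0.37 with the covariate. The cause of these shifts was not tested. With the replicate number of the titles as a block, the members' median interaction was -0.72 and 0 members passed; the deviations of same-numbered arrays correlated at over 0.1 in 11 of 24 pairs (median 0.04, from -0.45 to 0.53), and 8 of 17 arrays correlated best with an array of their own number. The numbers were not taken as pairs because not every pair was over 0.1. The NN, DN and DD arrays numbered 3 correlated at 0.36 to 0.39, and those numbered 2 at 0.19 to 0.53, while ND 2 correlated with the latter at -0.45 to -0.01. Whether some arrays share a batch was not tested. The dim signal of Gja5 limits the size of its differences.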
